A study of Bos taurus with 47 samples.

Results

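Myostatin is the gene listed as ENSBTAG00000011808, which is MSTN in the Ensembl cattle annotation. It was taken by that identifier and is 1 of 27607 identifiers in each of the 3 count tables. The gene table used here lists 1 cattle gene named MSTN but pairs 0 Ensembl identifiers with symbols, so the symbol could not be checked against it, and no position or sequence is given. Muscle RNA came from 47 libraries of cattle descended from crossbred Angus heifers (F0). These heifers gained 0.28 kg per day (low gain, LG) or 0.79 kg per day (moderate gain, MG) over the first 84 days of gestation and were managed together afterwards. Newborn F1 heifers gave Longissimus thoracis taken after calving and before suckling (8 LG and 8 MG libraries). Grown F1 heifers gave Longissimus thoracis at slaughter (8 LG and 7 MG by the sample labels, used here, although the protocol text has these 2 numbers the other way round). Day 84 F2 fetuses gave Longissimus dorsi (8 LG and 8 MG), with LG and MG naming the gain of the granddam. F1 heifers of both groups were managed alike. The age at slaughter is not in the labels used here, and stage cannot be told apart from generation, the part of the muscle named, or the table in which the libraries were counted.

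Myostatin is a secreted ligand of the TGF-beta family that limits the growth of skeletal muscle. It is made as a precursor, is released from its propeptide by cleavage, binds activin type II receptors such as ACVR2B, and acts through SMAD2 and SMAD3; follistatin binds and blocks it. Skeletal muscle is its main source, and cattle that lack working myostatin are double-muscled, with more muscle fibres formed before birth. No ligand, receptor, inhibitor or target of this pathway other than MSTN itself is described here, since the tables give identifiers without symbols.

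Library totals ran from 15526773 to 21916940 counts in fetuses, from 13308433 to 22671822 at birth and from 14972276 to 32547565 at slaughter. The 10 most abundant genes took 9.228% to 13.92% of a fetal library, 17.25% to 26.75% of a newborn library and 22.1% to 25.77% of a slaughter library. Levels are given in CPM, read counts relative to library size, with library sizes scaled by the trimmed mean of M-values (TMM) over all 47 libraries. In bulk muscle, fewer cells that make a transcript and less transcript per cell cannot be told apart. Nothing in the labels says that the libraries of a group came from separate animals, so a p-value here measures spread among libraries, which may be technical.

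MSTN was highest in fetuses, lowest at birth and intermediate at slaughter. In fetuses it ran from 1.892 to 74.92 CPM with a median of 9.112, a mean of 14.71 ± 17.15 CPM (SD, n = 16). At birth it ran from 0.1223 to 6 CPM with a median of 2.233 and a mean of 2.302 ± 1.559 (SD, n = 16). At slaughter it ran from 1.548 to 11.72 CPM with a median of 5.275 and a mean of 5.821 ± 3.288 (SD, n = 15). The stages overlapped. Of 16 newborn libraries, 10 lay above the lowest fetal library, although 0 lay above the fetal median, and 12 of 15 slaughter libraries lay above the newborn median. Counts behind these levels were 40 to 2270 in fetuses, 2 to 115 at birth and 21 to 180 at slaughter, so the newborn values carry the largest counting error.

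**Figure D1:**
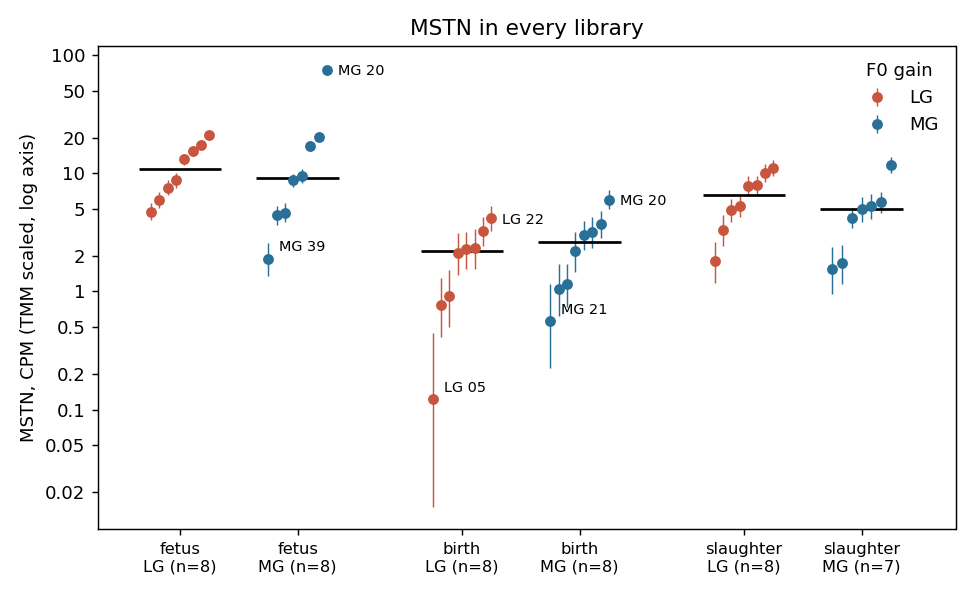
MSTN in each library (CPM, log axis) by stage and by LG or MG, with 1 point per library. Fetal MG 20 stands at 74.92 CPM above all other libraries, and newborn LG 05 at 0.1223 CPM below them.

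Between fetus and birth MSTN fell by 2.67 on the log2 scale (SE 0.43, 95% interval -3.55 to -1.79, edgeR's quasi-likelihood test with Benjamini-Hochberg adjusted p = 1.013e-06), which is 6.357-fold lower. Most of the transcriptome differed between these stages: 81.9% of 14820 genes passed the test and 44% passed as lower at birth, and 13.64% of the genes had a lower log2 fold change than MSTN. The size, but not the direction, depended on scaling and on 1 library. With total counts alone as library size the value was -3.63, and without fetal MG 20 it was -2.20.

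Between birth and slaughter MSTN rose by 1.34 on the log2 scale (SE 0.35, 95% interval 0.63 to 2.04, edgeR adjusted p = 0.001037), or 2.526-fold. Here 70.2% of 13369 genes passed, and 37% passed as higher at slaughter. A lower log2 fold change than that of MSTN was found in 91.39% of the genes, and one larger in size in 14.44%. In LG alone the rise was 1.74, and in MG alone the difference was 0.91 and did not pass (edgeR adjusted p = 0.1051); the test of LG against MG in this change, given with the other interactions, did not pass either. The labels give 6 numbers to a library at both of these stages; over these alone the difference was 0.31 (edgeR adjusted p = 0.6206). The 6 newborn libraries with these numbers averaged 3.183 ± 1.586 CPM (SD), and the other 10 averaged 1.774 ± 1.351. At slaughter the 6 averaged 4.726 ± 3.526 CPM and the other 9 averaged 6.552 ± 3.106. Whether a number marks 1 animal is not in the labels used here.

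Between fetus and slaughter MSTN fell by 1.32 on the log2 scale (SE 0.39, 95% interval -2.13 to -0.52, edgeR adjusted p = 0.002767), which is 2.502-fold lower. The test called 83.4% of 14960 genes, 45% as lower at slaughter. Of the genes tested, 28.48% had a lower log2 fold change than MSTN, and 51.39% had one larger in size. Without fetal MG 20 the value was -0.82 (edgeR adjusted p = 0.01509), and with total counts alone it was -2.36. With limma voom and sample weights it was -0.58 and did not pass (adjusted p = 0.05781).

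**Figure D2:**
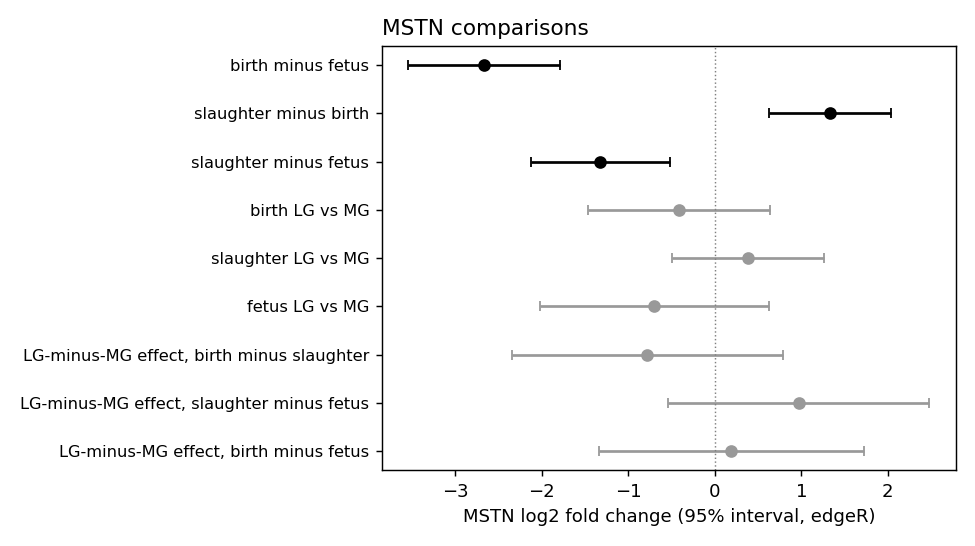
MSTN log2 fold changes with 95% intervals from edgeR for the stage comparisons, LG against MG within each stage, and the difference of the LG-minus-MG effect between stages. The 3 stage intervals lie clear of 0 and the other 6 include it.

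The comparison of LG with MG asked whether early gain of the F0 heifer left a difference in the muscle of its descendants. No difference in MSTN passed the test at any stage. At birth LG libraries ran from 0.1223 to 4.177 CPM with a median of 2.198, and MG libraries from 0.5588 to 6 CPM with a median of 2.599. The ranges overlapped over most of their length, and the log2 difference, LG minus MG, was -0.41 (SE 0.50, 95% interval -1.47 to 0.64, edgeR adjusted p = 0.9847). At slaughter LG ran from 1.802 to 11.11 CPM with a median of 6.578 and MG from 1.548 to 11.72 CPM with a median of 4.979. The groups again overlapped, with a log2 difference of 0.39 (SE 0.42, 95% interval -0.49 to 1.27, edgeR adjusted p = 0.9998).

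In fetuses LG ran from 4.749 to 21 CPM with a median of 10.94, while MG ran from 1.892 to 74.92 CPM with a median of 9.099. MG fetuses held both the lowest and the highest fetal value. The log2 difference was -0.70 (SE 0.63, 95% interval -2.02 to 0.62, edgeR adjusted p = 0.9997), and it turned to 0.34 without MG 20. The MG mean was 17.68 ± 23.99 CPM with that library (SD, n = 8) and 9.508 ± 6.872 without it (n = 7), beside 11.75 ± 5.885 in LG (n = 8). These intervals leave room for differences in either direction. The test called 0% of all genes at each stage. The unadjusted p of edgeR was under 0.05 for 515 of 12485 genes at birth, 230 of 12577 at slaughter and 102 of 14200 in fetuses, and MSTN was in none of these sets.

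The LG-minus-MG difference of MSTN was also compared between stages in 1 model over all 47 libraries. It differed by -0.78 between birth and slaughter (95% interval -2.35 to 0.79), by 0.97 between slaughter and fetus (-0.54 to 2.48) and by 0.19 between birth and fetus (-1.34 to 1.72). None passed (edgeR adjusted p from 0.9999 to 1), and the test called 0% of 15264 genes in each of the 3 comparisons. The unadjusted p was under 0.05 for 468, 341 and 449 genes.

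Between libraries of 1 group MSTN varied more than most genes. On the log2 scale its SD within LG and MG was 1.36 in fetuses, where 95.71% of genes had a lower SD and the median gene had 0.56. At birth it was 1.20, above 99.34% of genes, and at slaughter it was 0.92, above 96.38%. Low counts spread more on this scale, so MSTN was also set beside genes within 1 log2 unit of its own mean level. Of these, 98.94% had a lower SD in fetuses (3968 genes), 98.4% at birth (2625 genes) and 96.63% at slaughter (3445 genes). Counting error alone gives a coefficient of variation of 4.899% in fetuses, 16.62% at birth and 10.7% at slaughter, where the measured values were 116.5%, 67.7% and 56.48%. Without fetal MG 20 the fetal value was 58.28%, below that of the newborn libraries, so the place of the fetuses in this order rests on that library. Without newborn LG 05 the newborn value was 61.16%. On the log2 scale, the SD over all newborn libraries was 1.214 with LG 05 and 0.936 without it. This SD was 0.921 at slaughter and 0.978 in fetuses without MG 20. The shares of genes with a lower SD given above include MG 20 and LG 05.

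The extreme libraries differed beyond counting error. Fetal MG 20 was 39.61-fold above fetal MG 39, from 2270 and 40 counts (95% Poisson interval of the ratio 28.99 to 55.59), and 3.568-fold above the next highest fetus, LG 41 (3.247 to 3.926). Newborn MG 20, the highest newborn, was 10.74-fold above newborn MG 21 (5.047 to 27.3). Newborn LG 05 held 2 counts of MSTN, and its level has a 95% interval of 0.01481 to 0.4419 CPM. At slaughter the highest library, MG 23, was 7.571-fold above the lowest, MG 31 (4.789 to 12.57). These intervals cover counting error only.

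The level of MSTN was set against 3 measures of each library within each stage, 9 relations in all. In fetuses, log2 MSTN was lower where the 10 most abundant genes took a larger share of counts (Pearson r = -0.65, permutation p adjusted over the 9 relations = 0.02286; Spearman rho = -0.68, adjusted permutation p = 0.04464; n = 16). Without the 2 fetuses farthest from the median share, MG 23 and MG 45, r was -0.63 (adjusted permutation p = 0.1159). It was also higher along the first principal component of the fetal libraries, which held 49.95% of their variance (r = 0.68, adjusted permutation p = 0.02286; rho = 0.55, adjusted permutation p = 0.1097). That relation rested on the extreme libraries, since without MG 20 and MG 15 r was 0.40 (adjusted permutation p = 0.3483). None of the other 7 relations passed; with total counts, r was -0.16 in fetuses, 0.27 at birth and -0.13 at slaughter. In the gene relations that follow, the first principal component or, chosen after seeing the data, the top 10 share was added to the model; total counts were not.

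Genes that vary with MSTN within a stage were sought by a model with LG or MG and the log2 CPM of MSTN, whose slope is the log2 change of a gene per log2 unit of MSTN. In fetuses, 38.4% of the other 14199 genes had a slope that passed edgeR's test (5456 genes): 25.6% had a positive slope that passed (3635) and 12.8% a negative one (1821). The range of MSTN among fetuses owed much to MG 20. Without it 1596 genes passed, 1236 positive and 360 negative, and 1562 of these were among the 5456 with the same sign. With the first principal component in the model 4512 genes passed, of which 2156 were among the 5456 with the same sign. With the top 10 share 3004 passed, of which 2967 were among the 5456 with the same sign. A gene that passed both times with opposite signs would not be in these overlaps.

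**Figure D3:**
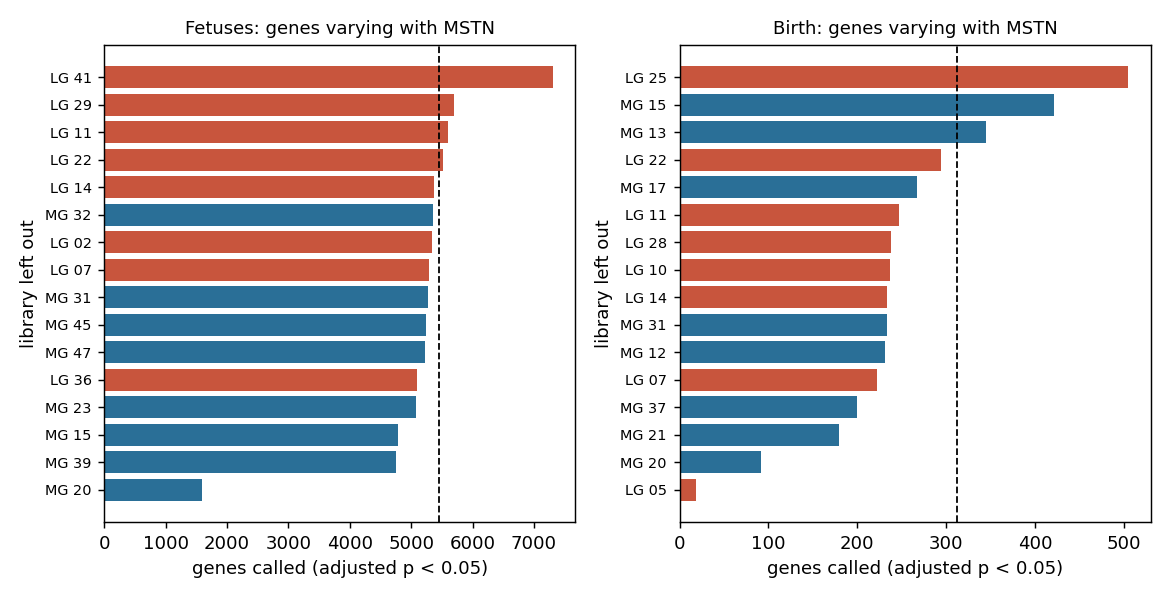
Number of genes whose slope on MSTN passed edgeR's test at birth and in fetuses with every library and with each library left out in turn. Newborn counts span 18 to 505, the lowest without LG 05, and fetal counts span 1596 to 7308, the lowest without MG 20.

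The fetal identifiers most like MSTN were sought among 8718 genes whose mean log2 CPM was 3 or more. Only the 3303 of these whose slope passed could be named, so the adjusted p of a named slope is no separate evidence. They were ENSBTAG00000018643 and ENSBTAG00000025942 in the same direction and ENSBTAG00000021223 and ENSBTAG00000012749 in the opposite one. Their likeness is Pearson's r of log2 CPM about the LG and MG means over 16 libraries, which share the same totals and scaling factors with MSTN. ENSBTAG00000018643 ran from 6.195 through a median of 13.67 to 35.68 CPM (r = 0.96), with its lowest value in MG 39 and its highest in MG 20, the same 2 fetuses as for MSTN. Its slope was 0.52 (SE 0.05, edgeR adjusted p = 6.178e-06). ENSBTAG00000025942 ran from 3.121 through 8.86 to 22.44 CPM (r = 0.95), again lowest in MG 39 and highest in MG 20, with a slope of 0.64 (SE 0.07, edgeR adjusted p = 7.082e-06).

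The opposite pair was lowest in MG 20. ENSBTAG00000021223 ran from 11.58 through 42.56 to 65.59 CPM (r = -0.95), with a slope of -0.38 (SE 0.05, edgeR adjusted p = 2.189e-05). ENSBTAG00000012749 ran from 115.9 through 266.4 to 392.4 CPM (r = -0.94), with a slope of -0.24 (SE 0.04, edgeR adjusted p = 0.0003685). Each of the 4 slopes still passed without MG 20, at 0.51, 0.72, -0.31 and -0.21 in the order named. Without both MG 20 and MG 39 the last did not pass, at -0.26 (edgeR adjusted p = 0.06281), and the other 3 did. At birth and at slaughter none of the 4 had a slope that passed, and r was at most 0.36 in size.

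**Figure D4:**
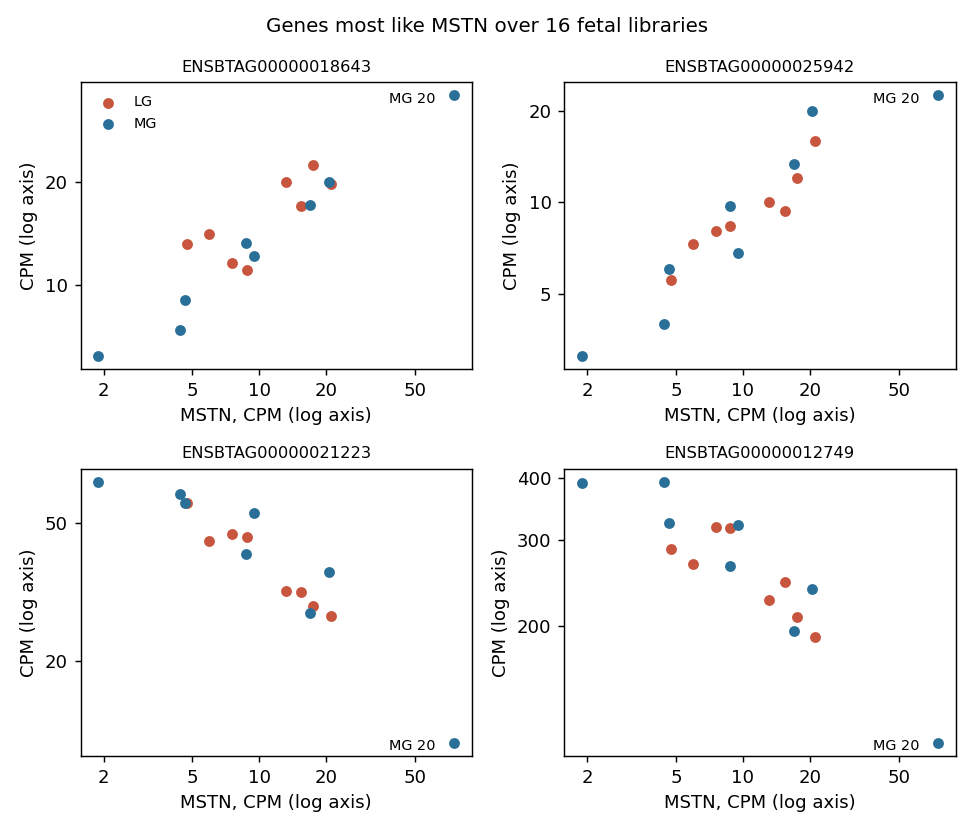
CPM of the 4 identifiers most like MSTN in fetuses against CPM of MSTN in the same library (log axes, 16 libraries, colour for LG or MG). The upper 2 rise with MSTN and the lower 2 fall, and MG 20 lies at the end of each.

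At birth 2.5% of 12484 genes had a slope that passed (312 genes), 0.905% positive (113) and 1.59% negative (199), and 2387 had an unadjusted p under 0.05. This count was not stable. Without LG 05, the library with 2 counts of MSTN, 18 genes passed, without MG 20 92, without MG 21 179, without MG 37 200 and without LG 25 505. With the first principal component, which held 21.28% of the newborn variance, 0 genes passed, and with the top 10 share 171 did.

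The newborn identifiers most like MSTN were ENSBTAG00000000256 and ENSBTAG00000009547 (r = 0.93 and 0.91) and, in the opposite direction, ENSBTAG00000000670 and ENSBTAG00000018862 (r = -0.89 and -0.88). As in fetuses, they were taken only from genes whose slope passed, 239 of the 7018 at the same level. ENSBTAG00000000256 ran from 14.68 through 37.19 to 59.32 CPM and was lowest in LG 05, as MSTN was. Its slope was 0.39 (SE 0.05, edgeR adjusted p = 0.001237), and without LG 05 it was 0.36 (edgeR adjusted p = 0.01895). Without LG 05 the slope of ENSBTAG00000000670, -0.25 with every library (SE 0.04, edgeR adjusted p = 0.007017), also passed at -0.30 (edgeR adjusted p = 0.0255). Those of ENSBTAG00000009547 and ENSBTAG00000018862 did not pass (edgeR adjusted p = 0.1931 and 0.1367), at slopes of 0.13 and -0.24 beside 0.15 and -0.29 with every library. Without both LG 05 and MG 21 (a pair chosen after seeing the data) none of the 4 passed (edgeR adjusted p 0.06801 to 0.2603). Their slopes were then 0.335, 0.145, -0.273 and -0.191, in the order first named. With the first principal component none of the 4 passed either, and their slopes, in the same order, were 0.35, 0.13, -0.24 and -0.20. In fetuses ENSBTAG00000000256 had a slope of the opposite sign, -0.13 (r = -0.74, edgeR adjusted p = 0.02627). At slaughter its slope had the newborn sign, 0.19 (r = 0.73), and did not pass (edgeR adjusted p = 0.9958). The differences between these slopes were not tested.

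At slaughter the slope of 0% of 12576 genes passed with edgeR, while 563 had an unadjusted p under 0.05, and limma voom also called 0. By the same level rule, the identifiers with the largest r were ENSBTAG00000015780 (0.78) and ENSBTAG00000007586 (0.77), and those with the lowest were ENSBTAG00000020797 (-0.82) and ENSBTAG00000020066 (-0.80), all with an edgeR adjusted p of 0.9958. ENSBTAG00000020066 had a slope of -0.14 at slaughter and of 0.53 in fetuses, where it passed (r = 0.84, edgeR adjusted p = 0.0002856), and the difference was not tested. ENSBTAG00000020797 had negative slopes at both stages, -0.16 at slaughter and -0.23 in fetuses, the latter passing (edgeR adjusted p = 0.007065).

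Newborn and fetal libraries are different samples, and their slopes can be set side by side. They may not be independent, since 7 numbers occur at both stages and the labels do not say what a shared number stands for. Of the 312 genes with a newborn slope, 301 were tested in fetuses and 114 also had a fetal slope that passed. These 114 are 36.54% of all 312 newborn genes and 2.089% of all 5456 fetal genes, some of which were not tested at the other stage. The matched shares are 114 of 301 newborn genes and 4975 of the 12030 genes tested at both stages. Over all genes tested in fetuses 38.4% passed. The newborn list thus held no larger share of passing fetal slopes than all genes did. The sign was the same in 81 of the 114 that passed at both stages (71.05%). Over the whole newborn list it was the same in fetuses for 202 of 301 genes (67.11%). Among all 12030 genes tested at both stages the share was 57.12%. At slaughter, where no slope passed, 203 of the 303 newborn genes that could be tested had the newborn sign (67%), against 53.97% of all 11985 genes tested at both stages. These shares were not tested, and genes are not independent of each other.

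Genes that varied with MSTN in fetuses were also followed between birth and slaughter, a comparison with no fetal library in it, over which MSTN itself rose. Of 3413 genes with a positive fetal slope that were tested there, 66.95% had a higher value at slaughter than at birth (median log2 fold change 0.26). Among 1721 genes with a negative fetal slope the share was 45.96% (median -0.09), and among all 12585 genes tested in both it was 52.05% (median 0.04). With fetal slopes computed without MG 20 the shares were 66.42% of 1194 genes and 48.84% of 346. The newborn lists were set in the same way against slaughter minus fetus, over which MSTN fell. Of 113 genes with a positive newborn slope, 78.76% had a higher value at slaughter (median log2 fold change 1.25), the opposite direction to MSTN. The share was 51.02% of 196 genes with a negative newborn slope and 52.57% of all 12376 genes. These are descriptions of lists and were not tested against other lists.

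Libraries that carry the same number at different stages were compared last, in 3 relations. Over the 7 numbers found both at birth and in fetuses, log2 MSTN was higher in the fetus where it was higher in the newborn (r = 0.88, exact permutation p = 0.005952, adjusted over 3 relations 0.01786; rho = 0.93, exact permutation p = 0.006746, adjusted 0.02024). Number 20 was the highest of the 7 at both stages, at 6 CPM in the newborn and 74.92 CPM in the fetus, and number 15 was the lowest at both, at 1.058 and 4.414 CPM. Without these 2 numbers r was 0.58, and with each value taken from its LG or MG mean it was 0.72 over the 7 (exact permutation p adjusted 0.09762). Over 6 numbers at birth and at slaughter r was 0.29 (exact permutation p = 0.6361) and rho 0.14. Over 15 numbers at slaughter and in fetuses r was -0.21 (permutation p = 0.4575, adjusted 0.6361) and rho -0.40 (permutation p = 0.1456, adjusted 0.2184). Each shared number carried the same LG or MG label at both stages, but what it stands for is not in the labels used here.

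**Figure D5:**
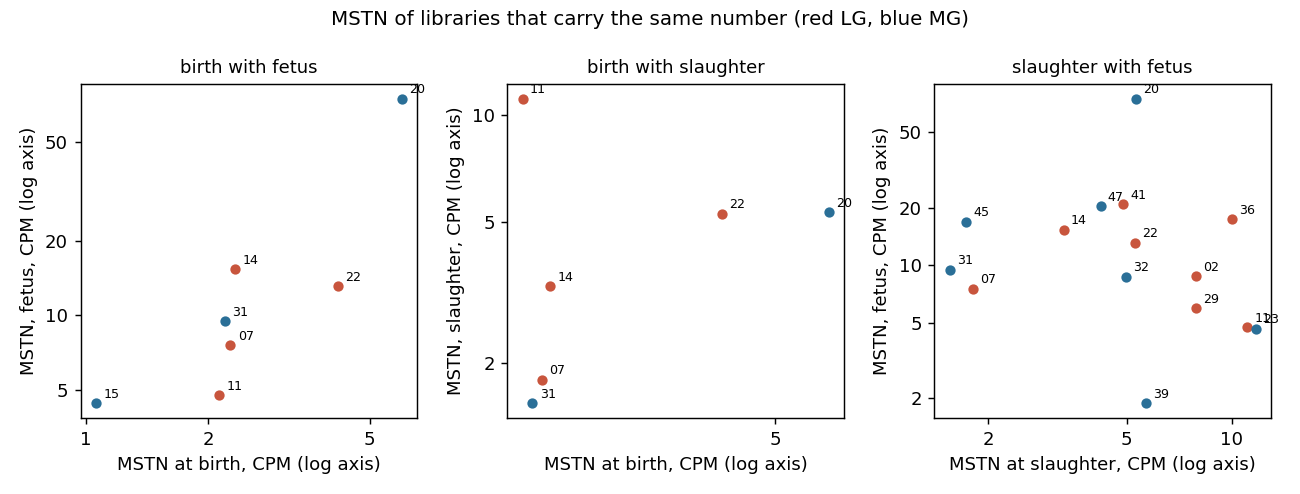
MSTN (CPM, log axes) of libraries that carry the same number, for each pair of stages, with the number beside each point. Number 20 is the highest at birth and in fetuses, and the 15 numbers of the last panel show no order that passed the test.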

How the data were processed

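Muscle polyA RNA of 47 samples was sequenced from libraries that do not mark strand, per the labels' protocols, so reads of a gene overlapping MSTN on the other strand cannot be told apart. The authors deposited raw read counts per gene in 3 tables, 1 per stage. The submitters' processing notes name STAR 2.7.3a, edgeR 3.24.3, FastQC 0.11.8 and MultiQC 1.9. Which build, annotation and counter were used is not given in the sources used here. The slaughter table's header has no name for the identifier column, and its first name was taken for the first column of values. Groups followed the treatment and timepoint labels.

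Counts were filtered with filterByExpr, scaled by TMM and tested in R 4.3.3 with edgeR 4.0.16, by its robust quasi-likelihood test over all genes with Benjamini-Hochberg adjustment at 0.05. Stage comparisons weighted LG and MG equally. Slopes used log2 CPM with a prior count of 2, scaled within the stage, and MSTN was left out of the genes tested. The 2 identifiers per direction with the largest r at a mean log2 CPM of at least 3 are named. In fetuses and at birth they were taken only from genes whose slope passed. At slaughter, where none passed, they were taken from all genes at that level. Permutation tests were two-sided, exact below 10 libraries and with 100000 resamples otherwise. Intervals are 95%. Sample-weighted voom from limma 3.58.1, DESeq2 1.42.0, other scalings and filters, other slope models and leaving out each library were alternatives. Library pairs of a group differed by a chi-square of at least 23.21 per degree of freedom (161 pairs), and none was merged. The gene, lists and tests were chosen with earlier results of these data known. The pathway and cell type lists need symbols and were not run, so the tissue label was not checked against markers.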

Additional observations from a re-analysis of the deposited data

Results flagged for a closer look

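In 2 of the 6 groups of libraries examined, 1 library's MSTN level lay far from the others for the size of the group. Among the 8 MG fetuses, MG 20 had 74.92 CPM, and its gap to the next library was 0.746 of the group's whole range. Among the 7 MG libraries at slaughter, MG 23 had 11.72 CPM, with a gap of 0.595 of the range. On the log2 scale the same gaps were 0.353 and 0.359 of the range, under the limits of 0.526 and 0.568 for 8 and 7 libraries, so neither library stood apart on that scale. For normally distributed values chance gives about 1 such group in 20.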

How the results depend on the processing

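MSTN stayed lower at birth than in fetuses, and passed, under every alternative run, from -2.82 to -2.20 with 1 library left out and at -1.96 with limma voom and sample weights, the limma fit used for every comparison of MSTN itself (slopes used voom without weights). Between slaughter and birth, leaving out 1 library gave 1.13 to 1.49; the call was lost in MG alone (0.91) and over the 6 shared numbers, at 0.33 with a replicate block and 0.31 without it. Between slaughter and fetus the range was -1.50 to -0.82, and limma voom (-0.58) did not pass. LG minus MG in fetuses turned to 0.79 with limma voom and ran from -0.93 to 0.34 with 1 library left out; it ran from -0.66 to -0.10 at birth and from 0.23 to 0.74 at slaughter. With limma voom its difference turned to -0.10 between slaughter and fetus and to -1.25 between birth and fetus. The cause of these turns was not tested.

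The newborn slopes that passed numbered 184 with no term for LG or MG, 0 with the first principal component, 171 with the top 10 share, 16 on ranks, 8 without LG 05 and MG 21 and 18 to 505 with 1 library left out. The fetal ones numbered 3004 with the top 10 share, 868 without MG 20 and MG 39 and 1596 to 7308 with 1 left out. The top 10 share and the pairs left out were chosen after seeing the data. At slaughter the count was 0 under all alternatives run. Without the 2 fetuses farthest on the measure itself, r of MSTN with the top 10 share was -0.63 (MG 23 and MG 45 left out). With the first component it was 0.40 (MG 20 and MG 15 left out). The same-number r of birth and fetus was 0.72 from group means, and none of these 3 then passed.

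Numbers shared between stages were not taken as pairs, since the labels do not say what they mark and the correlation was not above 0.1 in every pair. Each shared number had the same treatment at both stages (7 of 7, 6 of 6 and 15 of 15 in the order below). Over all genes, deviations of same-number libraries correlated from -0.26 to 0.135 for birth and fetus. They correlated from 0.024 to 0.257 for slaughter and birth, and from -0.309 to 0.312 for slaughter and fetus. In the same order, 2 of 7, 3 of 6 and 1 of 15 correlated best with their own number. With the replicate block the stage values of MSTN were -2.22 for birth and fetus and -1.08 for slaughter and fetus, both still passing. Counts of 2 to 115 limit the newborn values.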
